A study of Mus musculus with 12 samples.

Results

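Micall1, Eif3l and Polr2f lie next to each other on mouse chromosome 15, with Sh3bp1, Nol12, Triobp, Gcat and Ankrd54 before them and Pick1 after them. These 9 genes were found in the deposited tables by symbol. They take up 10 of the 56691 rows of each table, because Gcat stands on 2 rows, and all 10 rows passed the filter on low counts. The genes were picked for their levels in all 4 groups, chiefly Vehicle against Control, so their own values are given as a description in every comparison. Tests are reported only for genes outside the 9. The series measured RNA in palatal shelves, the paired outgrowths that form the roof of the mouth, from mouse embryos at gestational day 12. The Control group was wild type and untreated. The Knockout group was labelled DNMT1 KO, a conditional deletion of the maintenance DNA methyltransferase Dnmt1, and was untreated. The AzadC group was wild type and exposed to 5-aza-2'-deoxycytidine, a cytidine analogue that traps DNA methyltransferases on DNA, and the Vehicle group was wild type and given the carrier. Each group had 3 libraries, each made from the pooled tissue of 2 embryos of 1 genotype. The sources used here do not give the Cre driver, the deleted exons, the strain, or the dose, route and time of AzadC or its carrier.

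The 3 genes at the centre act in unrelated processes. Eif3l encodes a subunit of eIF3, the multi-subunit factor that brings the small ribosomal subunit to mRNA at the start of translation. Polr2f encodes a small subunit shared by RNA polymerases I, II and III. Micall1 encodes an adaptor of tubular recycling endosomes that recruits EHD1 and Rab proteins. Around them, Gcat encodes a mitochondrial enzyme of threonine breakdown to glycine, Nol12 a nucleolar protein of ribosomal RNA processing, and Triobp an actin-bundling protein. Sh3bp1 encodes a GTPase-activating protein, Pick1 a PDZ and BAR domain protein of receptor trafficking, and Ankrd54 an ankyrin-repeat protein that shuttles between nucleus and cytoplasm.

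In the mm10 build the 9 genes span 349717 bases of chromosome 15, with positions from GENCODE M21. Eif3l covers chr15:79075179-79094405, Micall1 chr15:79108898-79136900 and Polr2f chr15:79141009-79151774, all on the plus strand. The 3 genes thus fill 76.6 kb. Ankrd54, at chr15:79053094-79062893 on the minus strand, ends 12285 bases before Eif3l, while 14492 bases separate Eif3l from Micall1 and 4108 bases separate Micall1 from Polr2f. Upstream of Ankrd54 lie Sh3bp1 (chr15:78899768-78912051), Nol12 (chr15:78934933-78943638), Triobp (chr15:78947724-79005869) and Gcat (chr15:79030874-79038353), all on the plus strand. Downstream, Pick1 (chr15:79229173-79249484, plus strand) begins 77398 bases after the end of Polr2f.

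The promoters of the 3 genes are shown, with that of Ankrd54 as the nearest upstream gene, which was not called in any comparison. They are RefSeq windows of GRCm38.p6, from 250 bases before to 50 after the annotated start, read 5′ to 3′ on the gene's strand. RefSeq windows were at hand for 8 of the 9 genes. RefSeq starts can differ from the GENCODE positions above, and the Polr2f window lies wholly inside Polr2f as placed there. The same window takes in the start of 1700088E04Rik, a minus-strand gene that reaches chr15:79141253. Capitals mark matches on either strand. The motifs searched were the GC box GGGCGG, the CCAAT box, the TATA box TATAAA, the ETS factor core CCGGAAG and the E-box CACGTG. The windows are chr15:79062810-79063109 (Ankrd54, minus strand), chr15:79074973-79075272 (Eif3l), chr15:79108733-79109032 (Micall1) and chr15:79141075-79141374 (Polr2f).
Ankrd54: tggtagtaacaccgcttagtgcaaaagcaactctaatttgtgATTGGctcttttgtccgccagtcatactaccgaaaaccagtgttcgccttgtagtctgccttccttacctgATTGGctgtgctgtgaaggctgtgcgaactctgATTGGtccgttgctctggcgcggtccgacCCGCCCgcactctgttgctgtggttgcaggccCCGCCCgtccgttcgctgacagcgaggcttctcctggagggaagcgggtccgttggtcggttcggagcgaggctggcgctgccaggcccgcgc
Eif3l: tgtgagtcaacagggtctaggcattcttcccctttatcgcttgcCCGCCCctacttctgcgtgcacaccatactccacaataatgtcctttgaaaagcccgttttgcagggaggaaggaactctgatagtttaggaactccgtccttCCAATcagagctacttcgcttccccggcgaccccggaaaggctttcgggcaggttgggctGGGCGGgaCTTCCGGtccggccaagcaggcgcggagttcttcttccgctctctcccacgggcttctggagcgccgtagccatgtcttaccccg
Micall1: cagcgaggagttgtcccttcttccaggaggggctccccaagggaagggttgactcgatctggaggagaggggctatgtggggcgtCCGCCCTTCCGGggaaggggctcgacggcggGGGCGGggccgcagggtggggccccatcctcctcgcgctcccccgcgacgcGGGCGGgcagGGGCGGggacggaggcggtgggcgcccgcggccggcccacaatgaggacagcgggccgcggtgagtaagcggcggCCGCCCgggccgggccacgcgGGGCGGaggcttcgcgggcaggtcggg
Polr2f: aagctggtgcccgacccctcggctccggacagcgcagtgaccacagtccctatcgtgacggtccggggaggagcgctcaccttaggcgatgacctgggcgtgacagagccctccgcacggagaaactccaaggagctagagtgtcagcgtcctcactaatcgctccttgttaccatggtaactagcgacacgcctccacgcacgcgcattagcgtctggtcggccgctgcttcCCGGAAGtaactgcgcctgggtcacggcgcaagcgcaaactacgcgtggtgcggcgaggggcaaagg

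All 3 windows were rich in CpG, the dinucleotide that Dnmt1 methylates. The Eif3l window held 20 CpG, the Micall1 window 38 and the Polr2f window 31, beside a median of 7 over the 32851 RefSeq promoters. The first Ankrd54 window held 24 and the Gcat window 21, so a high CpG count was not peculiar to the 3 genes. CCGGAAG occurred 1 time in each of the 3 windows, and 8.86% of all promoters held it. It also occurred in Nol12 and in the second Pick1 window, and was not found in the Ankrd54, Gcat and Triobp windows. GGGCGG, which 35.7% of promoters held, occurred 6 times in Micall1 and 2 times each in Eif3l and Ankrd54. In Micall1 a GGGCGG match and the CCGGAAG match overlap by 1 base. CCAAT was present in 37.4% of promoters, among them Eif3l and Ankrd54. TATAAA (13.6%) and CACGTG (7.15%) did not occur in the 4 windows printed. These matches describe the letters only, and no methylation was measured in the files used here.

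Libraries held 12640536 to 33113790 expected counts. Dnmt1 itself was at 179.6 to 201 CPM (counts scaled to the size of the library) in Knockout and 258 to 286 in Control, with no overlap. It was at 448 to 452 CPM in Vehicle and 408 to 482 in AzadC. Summed markers of palatal mesenchyme lay between 896 and 1569 CPM, and none of 66 markers of 10 cell types was at 0 in every library. No 2 libraries of a group agreed within sampling noise.

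Eif3l, Micall1 and Polr2f were each at close to 50% of the control level in the Vehicle libraries, while the 6 genes around them were at similar levels. Levels are given in CPM, with library sizes scaled by the trimmed mean of M values. Differences come from the fit, which uses the same scaling. Eif3l was at 405.4, 380.7 and 407.1 CPM in Control and at 215.8, 226.4 and 228.1 CPM in Vehicle. Every vehicle library was below every control library by a wide gap. The group means were 397.7 ± 14.8 and 223.4 ± 6.65 CPM (SD, n = 3), a log2 difference of -0.83 (SE 0.06), which puts Vehicle at 56.2% of Control. Micall1 was at 146.3, 149.9 and 139.4 CPM in Control and at 69.8, 76.9 and 71.2 CPM in Vehicle. Again the groups were apart, with means of 145.2 ± 5.34 and 72.6 ± 3.74 CPM (SD, n = 3), a log2 difference of -0.998 (SE 0.06) and 50.1% of Control. Polr2f was at 91.6, 76.0 and 68.1 CPM in Control and at 33.5, 42.5 and 37.2 CPM in Vehicle. Relative to the mean, its control libraries were the most spread of the 3 genes, yet the lowest was above all vehicle libraries. Its means were 78.5 ± 11.99 and 37.7 ± 4.52 CPM (SD, n = 3), a log2 difference of -1.06 (SE 0.12) and 48.1% of Control. By the threshold used for all genes, an edgeR adjusted p below 0.05, these 3 of the 10 rows counted as lower and 0 as higher. Over all 17335 genes tested, 3.52% were called, 1.46% higher and 2.06% lower, and 11.5% had 3 vehicle libraries below 3 control libraries. The rows were chosen on this contrast, so nothing is read from their count.

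**Figure D1:**
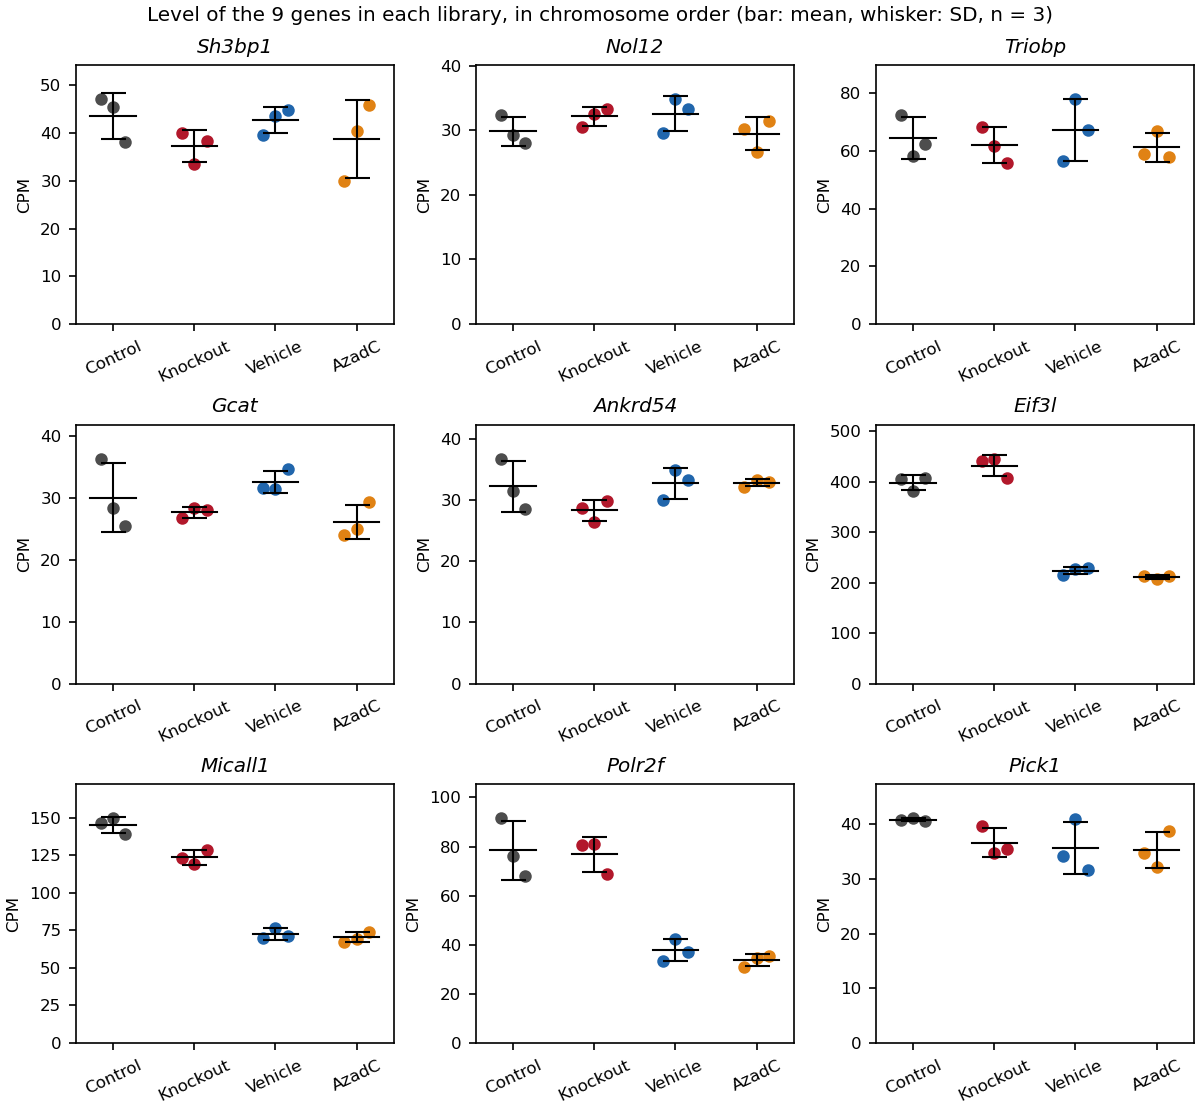
Level in CPM (vertical axes, from 0) of the 9 genes, in chromosome order, in the 12 libraries by group. Points are libraries, and bars and whiskers are the mean and SD of 3 libraries. For Eif3l, Micall1 and Polr2f the vehicle and AzadC points lie below all control and knockout points, and for the other 6 genes the groups lie close together.

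The 6 other genes differed between Vehicle and Control by -0.19 to 0.13 on the log2 scale, and for each of them the libraries of the 2 groups overlapped. Ankrd54, the neighbour 12285 bases before Eif3l, was at 28.6 to 36.8 CPM in Control and 30.0 to 34.9 in Vehicle, a log2 difference of 0.02 (SE 0.10). Pick1 had the largest difference of the 6, -0.19 (SE 0.10), with 40.6 to 41.1 CPM in Control and 31.7 to 41.0 in Vehicle. Nol12 stood at 0.13 (SE 0.09), Gcat at 0.11 (SE 0.12), Triobp at 0.06 (SE 0.12) and Sh3bp1 at -0.03 (SE 0.13). Differences of the size seen for Eif3l, Micall1 and Polr2f lay outside the error of each of the 6, while differences within about 2 standard errors were not detectable.

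The second Gcat row (ENSMUSG00000116378, chr15:79030901-79042531) overlaps the first (ENSMUSG00000006378), so the estimated split of reads between them is uncertain. Its expected counts were 0, 45.8 and 21.3 in Control, 6.02, 27.3 and 16.9 in Knockout, 0, 0 and 6.86 in Vehicle, and 0 in all 3 AzadC libraries. The row averaged under 1 CPM in every group and was not called in any comparison. It was called higher in Knockout than in AzadC with no filter, with the replicate block or without control replicate 1, and lower in Vehicle than in Control with no filter. It is left out of the statements on the 6 other genes.

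The AzadC libraries had levels of the 3 genes near those of Vehicle, and the Knockout libraries had levels near Control. Eif3l was at 213.0, 207.6 and 213.0 CPM in AzadC and at 440.3, 445.8 and 407.7 CPM in Knockout. Micall1 was at 67.6, 69.4 and 74.1 CPM in AzadC and at 123.4, 119.0 and 128.5 CPM in Knockout. Polr2f was at 30.8, 34.8 and 35.3 CPM in AzadC and at 80.8, 80.9 and 68.7 CPM in Knockout. The 6 libraries of wild-type embryos given AzadC or its carrier were thus below the 6 untreated libraries for all 3 genes. Such a gap held for 236 genes, 1.36% of those tested. For Vehicle against Control, the carrier and anything else that set the treated embryos apart from the untreated ones cannot be told apart.

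Between AzadC and Vehicle, which share the carrier, the log2 differences were -0.08 (SE 0.06) for Eif3l, -0.04 (SE 0.06) for Micall1 and -0.17 (SE 0.12) for Polr2f. The Eif3l libraries did not overlap, at 207.6 to 213.0 CPM in AzadC and 215.8 to 228.1 in Vehicle. The 6 other genes ran from -0.31 to 0.0024. The lowest was Gcat (SE 0.12), at 24.0 to 29.3 CPM in AzadC and 31.5 to 34.6 in Vehicle, also without overlap. The share of all genes without overlap in this comparison is not given here, so nothing is read from either gap. None of the 10 rows was called there, beside 0.0115% of all genes, which is 2 genes. Against Control, Knockout differed by 0.12 (SE 0.05) for Eif3l and -0.03 (SE 0.12) for Polr2f. The Eif3l libraries were at 407.7 to 445.8 CPM in Knockout and 380.7 to 407.1 in Control, a narrow gap without overlap. The share of all genes with knockout libraries above control libraries is not given here, so nothing is read from that gap. Micall1 was lower in Knockout by 0.23 on the log2 scale (SE 0.06), at 123.7 ± 4.75 CPM against 145.2 ± 5.34 (SD, n = 3), and its libraries did not overlap. The 6 other genes ran from -0.23 to 0.11 with a median of -0.14, so a fall of this size was not particular to Micall1. Among them Pick1 (-0.16, SE 0.10) was also lower without overlap. By the threshold used for all genes Micall1 was the 1 row of 10 counted as lower, with 0 higher. Over all genes 14.3% were called, 7.83% higher and 6.43% lower, and 15.1% had 3 knockout libraries below 3 control libraries. Nothing is read from that count of 1. It was 0 without control replicate 2, without knockout replicate 1 or 2, and with these 2 groups fitted alone. These comparisons share libraries with Vehicle against Control, and their values are given side by side with it and not as further evidence.

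Knockout against AzadC shares no library with Vehicle against Control, but the 3 genes were proposed with these levels known too, so its values are also a description. All 3 were higher in Knockout, Eif3l by 1.03 on the log2 scale (SE 0.06), Micall1 by 0.81 (SE 0.06) and Polr2f by 1.19 (SE 0.12). In each case 3 of 3 knockout libraries were above 3 of 3 AzadC libraries, as in 16.0% of all genes. The means in Knockout and AzadC were 431.3 ± 20.6 and 211.2 ± 3.14 CPM for Eif3l, 123.7 ± 4.75 and 70.4 ± 3.33 for Micall1, and 76.8 ± 7.01 and 33.6 ± 2.45 for Polr2f (SD, n = 3). By the same threshold 3 of the 10 rows counted as higher and 0 as lower, beside 10.6% of all genes called, 6.31% higher and 4.31% lower, and nothing is read from that count. Genotype and treatment both differ between these groups.

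For the 6 other genes, the log2 differences in Knockout against AzadC ran from -0.21 to 0.12. Ankrd54 was at 26.4 to 29.8 CPM in Knockout and 32.2 to 33.3 in AzadC, the 1 gene of the 6 whose libraries did not overlap, and 14.2% of all genes had 3 knockout libraries below 3 AzadC libraries. Nol12 stood at 0.12 (SE 0.09), Gcat at 0.08 (SE 0.12), Pick1 at 0.05 (SE 0.10), Triobp at 0.02 (SE 0.12) and Sh3bp1 at -0.06 (SE 0.14). The sign of the last 3 turned in some alternatives, so no direction is given for them.

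A ratio taken within each library needs no scaling between libraries. The summed counts of Eif3l, Micall1 and Polr2f, divided by those of the 6 other genes, came to 2.42 to 2.75 in Control and 2.74 to 2.97 in Knockout. The ratio was 1.31 to 1.44 in Vehicle and 1.36 to 1.48 in AzadC. The 6 libraries of the first pair of groups and the 6 of the second did not overlap, with the lowest of the former at 2.42 and the highest of the latter at 1.48. The 3 genes and the 6 were told apart by these same levels, so the gap in the ratio is a description and not a test. Across the 12 libraries, log2 CPM of Eif3l correlated with that of Polr2f at r = 0.97, of Micall1 with Polr2f at r = 0.96 and of Eif3l with Micall1 at r = 0.95. Correlations of the 3 with the 6 other genes ran from -0.50 to 0.60. All pairs share the same 12 libraries and the gap between the groups, so these values describe that gap.

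**Figure D2:**
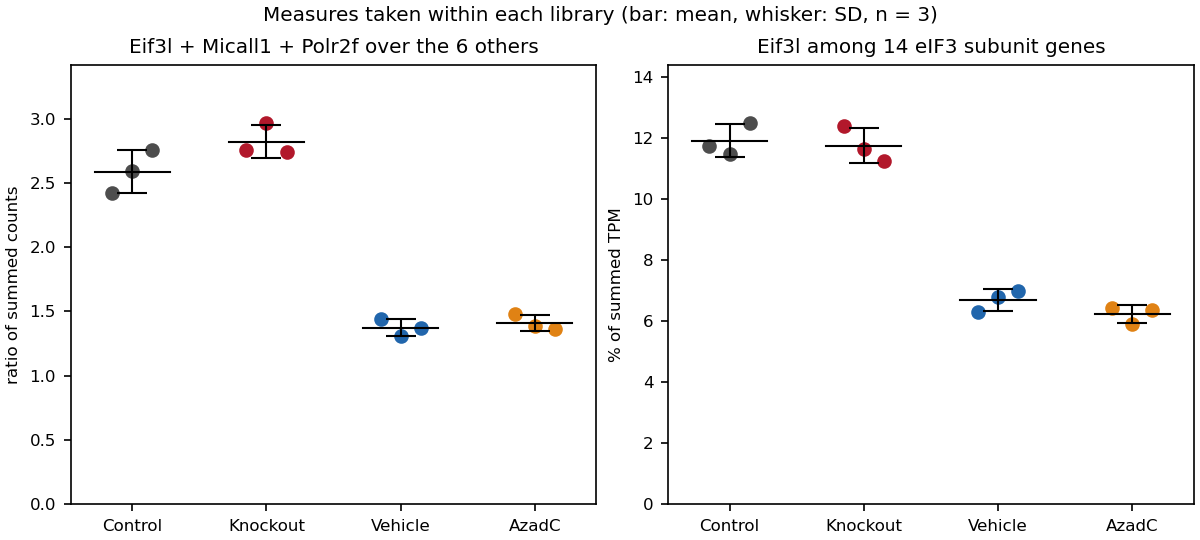
Left, summed counts of Eif3l, Micall1 and Polr2f divided by those of the 6 other genes; right, the percent of the summed TPM of 14 eIF3 genes held by Eif3l, both by group. Points are libraries, bars and whiskers are the mean and SD of 3 libraries, and both axes start at 0. Vehicle and AzadC lie below Control and Knockout in both panels.

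Per transcript length, in TPM (each gene's length-corrected share of a library), Eif3l was the highest of the 9 genes and Polr2f the next in every group. Eif3l was at 377 ± 15.8 TPM in Control, 389 ± 19.3 in Knockout, 209 ± 6.16 in Vehicle and 193 ± 7.09 in AzadC (SD, n = 3). Polr2f was at 295.5 ± 24.2 TPM in Control, 296 ± 18.5 in Knockout, 155 ± 9.28 in Vehicle and 141 ± 9.27 in AzadC (SD, n = 3). Both stayed well above the other 7 genes, which reached at most 53.8 TPM in any library. Micall1 was at 40.4 ± 0.26 TPM in Control, within the range of its neighbours, and at 31.9 ± 2.14 in Knockout. In Vehicle (20.5 ± 1.09 TPM) and AzadC (18.6 ± 1.45 TPM) it was the lowest of the 9, below every library of the other 8 genes. The order of the 6 other genes changed between groups, and neighbours in that order overlapped.

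The estimated transcript lengths bear on which isoforms the counts came from. Eif3l had a mean transcript length of 1918 to 1936 bases over all 12 libraries, a narrow range. Micall1 lengths were 5852 to 6170 bases in Control, 6031 to 6338 in Knockout, 5286 to 6140 in Vehicle and 5903 to 6339 in AzadC. Polr2f lengths were 642 to 691 bases in Control, 623 to 642 in Knockout, 589 to 646 in Vehicle and 575 to 636 in AzadC. The control libraries reached the longest Polr2f lengths. For both genes the control range overlapped with that of Vehicle. For Polr2f it lay above that of AzadC and narrowly above that of Knockout, from 642.41 bases against at most 642.22. Isoform counts were not analysed here.

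Between the ends of the 9 genes the annotation holds 15 other genes, of which 5 averaged above 1 CPM. 1700088E04Rik (chr15:79129349-79141253, minus strand) overlaps Micall1 by 7552 bases and Polr2f by 245. It was at 6.59, 7.89 and 5.82 CPM in Control and at 3.16, 4.50 and 2.94 in Vehicle, a log2 difference of -0.93 (SE 0.24) that did not pass the test (edgeR adjusted p = 0.0522). It passed in 3 of 12 fits without 1 library and in 4 of 9 other alternatives, with the adjusted p from 0.0089 to 0.173. In Knockout it was at 7.26, 5.51 and 4.38 CPM and in AzadC at 4.73, 3.21 and 4.01, a log2 difference of 0.53 (SE 0.24, edgeR adjusted p = 0.201). The sources used here give no strand setting for the counting, so reads of this gene and of Micall1 cannot be told apart where they overlap. Sox10, a transcription factor of neural crest and its glia, begins 3133 bases after Polr2f and lies at chr15:79154908-79165240 on the minus strand. Its level ran from 3.27 to 36.9 CPM, with log2 differences of -0.38 (SE 0.46) in Vehicle against Control and 0.59 (SE 0.48) in Knockout against AzadC, neither past the test (edgeR adjusted p = 0.726 and 0.490). With such a spread, differences as large as those of Polr2f lie within about 2 standard errors of the values of Sox10. Lgals1, which encodes the lectin galectin-1, was lower in Vehicle than in Control (log2 difference -0.39, SE 0.10, edgeR adjusted p = 0.0457), with a difference of 0.18 (SE 0.10, edgeR adjusted p = 0.286) in Knockout against AzadC. Its first call was lost in 9 of 12 fits without 1 library, with an edgeR adjusted p of up to 0.163. H1f0, a linker histone, and Pdxp, a pyridoxal phosphatase, differed by at most 0.17 in either comparison.

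Within 500 kb on either side, 65 genes other than the 9 were annotated and 32 were tested. In Vehicle against Control 1 was called higher (Sun2, 0.22) and 2 lower (Lgals1 and Kdelr3, -1.17), which is 9.38% of the 32 beside 3.52% of all genes. The median was -0.06 beside -0.0026 for all genes. For Knockout against AzadC, Rac2 (1.18) and Cyth4 (1.19), both known from blood cells, were higher and Sun2 (-0.18) was lower, again 9.38% beside 10.6% of all genes, with a median of -0.06 beside 0.005 for all genes. Sun2, Kdelr3, Rac2 and Cyth4 were named after their values were seen. Kdelr3, an endoplasmic reticulum retrieval receptor, was also at 12.4 CPM in Knockout and 11.6 in AzadC, so it did not share the gap of the 3 genes. Summed macrophage markers were at 253 to 280 CPM in Knockout and 107 to 121 in AzadC beside Rac2 and Cyth4, and their part in those values was not tested. These counts rest on few genes: the count of 3 in Vehicle against Control was 0 without control replicate 2 or vehicle replicate 3, 1 without control replicate 1, vehicle replicate 1 or knockout replicate 3, and 5 without AzadC replicate 2. The count of 3 in Knockout against AzadC was 1 without AzadC replicate 1 or 3 or knockout replicate 1 or 2.

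**Figure D3:**
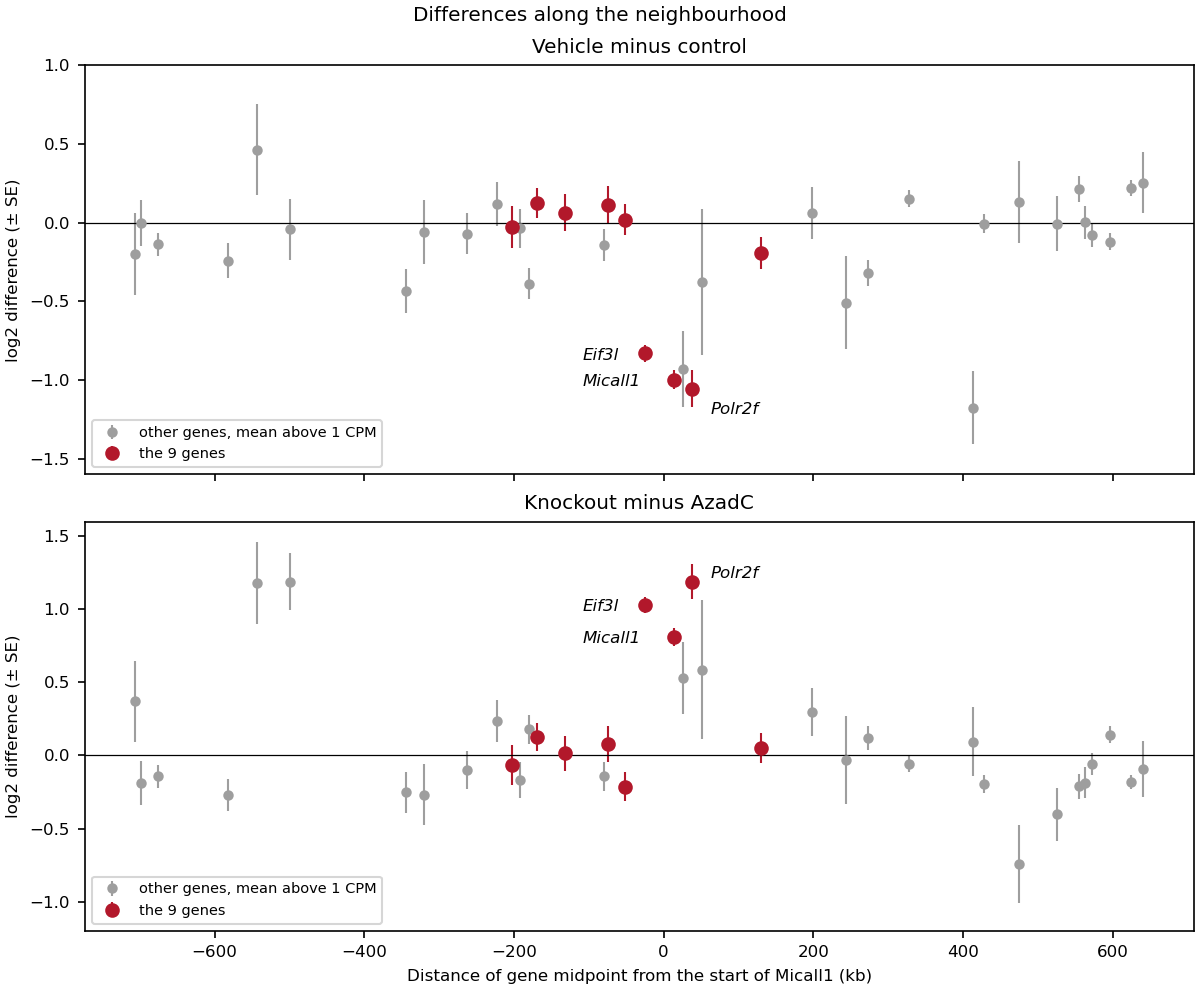
Log2 difference with its SE (vertical axes) of genes with a mean above 1 CPM within 500 kb of the neighbourhood, by distance in kb of the gene's midpoint from the start of Micall1; top, Vehicle minus Control, bottom, Knockout minus AzadC. Eif3l, Micall1 and Polr2f lie between -0.83 and -1.06 at the top and between 0.81 and 1.19 at the bottom, and the 6 other genes lie near 0.

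Over the whole table, 60 genes (0.346%) were called lower in Vehicle against Control and higher in Knockout against AzadC. They came from 21 chromosomes, with the mitochondrial genome (mt-Nd6) counted as 1. On chromosome 15 lay 4 genes: Eif3l, Micall1, Polr2f and Tuba1c. Of the 60, 17 averaged above 50 CPM, among them Eif3l, Micall1 and Polr2f. Along the order of tested genes, Eif3l and Micall1 were the only adjacent pair among the 60, and 1700088E04Rik, which missed the test, stood between Micall1 and Polr2f. Adjacent genes called lower in Vehicle against Control alone formed 14 runs among 17053 placed genes. The longest runs held 3 genes, Lgr5, Tspan8 and Ptprr on chromosome 10, and Aspn, Omd and Ogn on chromosome 13. These runs were looked for after the members were known, and they describe where calls lie.

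The other eIF3 subunits did not share the levels of Eif3l. Of 13 tested, 0 were called in Vehicle against Control, with a median log2 difference of 0.07 (range -0.48 to 0.17) beside -0.0026 for all genes. Between Knockout and AzadC only Eif3c was called (0.26, edgeR adjusted p = 0.00698), and the median was 0.06. The share of Eif3l in the summed TPM of the 14 eIF3 genes was 11.5% to 12.5% in Control, 11.2% to 12.4% in Knockout, 6.31% to 6.99% in Vehicle and 5.90% to 6.43% in AzadC. Its TPM was above the median of the other 13 subunits in all libraries but 1: that median was 176 to 202 TPM in Control and 179 to 188 in AzadC. Among the 14 it ranked 2 to 3 in Control, 3 in Knockout, 6 to 7 in Vehicle and 6 to 9 in AzadC.

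Of 27 other RNA polymerase subunits tested, only Polr2a, the largest subunit of RNA polymerase II, was called in Vehicle against Control. It was higher in Vehicle (0.46, SE 0.07, edgeR adjusted p = 0.00362), opposite in sign to Polr2f, and the median of the list was 0.06. Between Knockout and AzadC only Polr3b was called (0.27, edgeR adjusted p = 0.0221), with a median of 0.05, and that call was lost in 4 of 12 fits without 1 library (edgeR adjusted p up to 0.119). Polr2f ranked 1 to 2 among the 13 Polr2 genes by TPM in Control and 2 in Knockout, and 3 to 6 in Vehicle and 3 to 5 in AzadC. The median TPM of the other Polr2 genes stayed between 103 and 130 in all libraries.

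**Figure D4:**
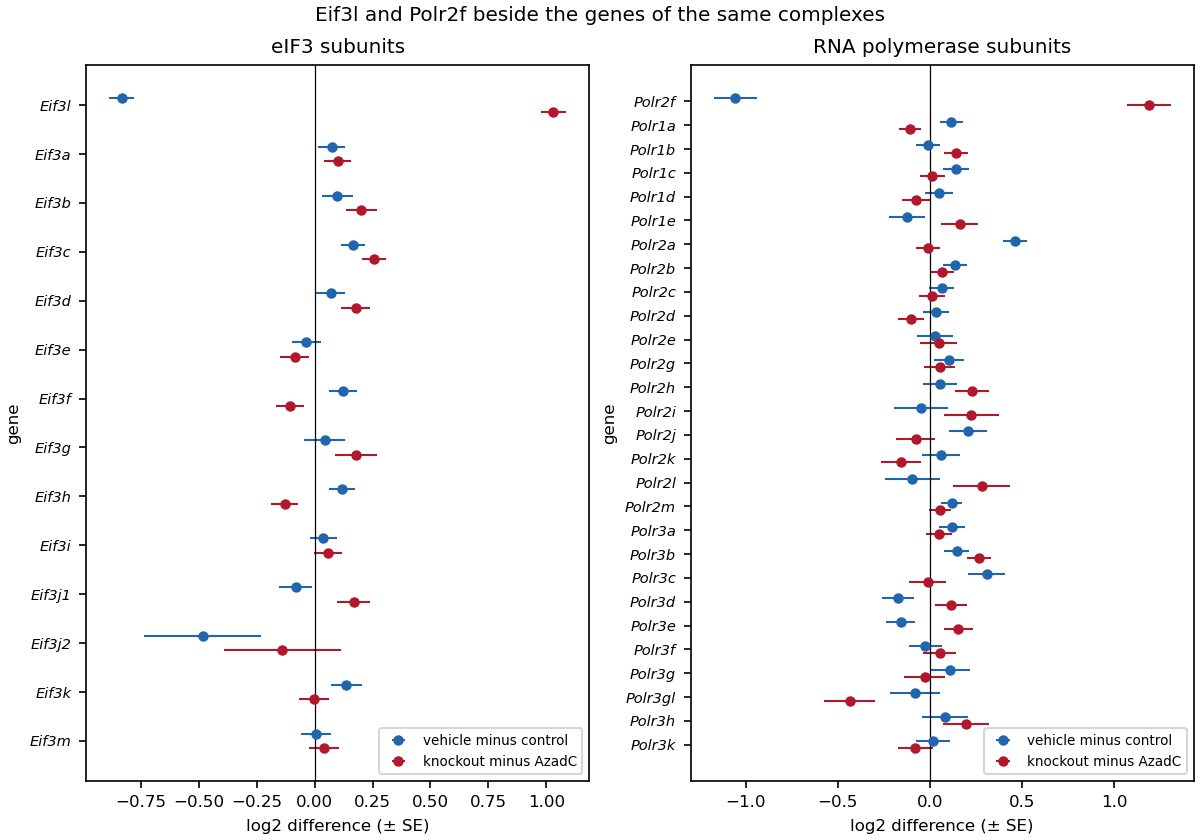
Log2 difference with its SE (horizontal axes) for Eif3l and the other eIF3 subunits (left) and for Polr2f and the other RNA polymerase subunits (right), in Vehicle minus Control (blue) and Knockout minus AzadC (red). Eif3l and Polr2f are the top gene of each panel and stand apart from the others on both sides of 0.

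The partners of the other genes were followed in further lists. A list of 13 genes held endosomal recycling genes set beside Micall1 and its relatives Micall2 and Mical1 to Mical3. Of these, 0 were called in Vehicle against Control. In Knockout against AzadC Rab13 (-0.49, edgeR adjusted p = 0.0143) and the relative Mical1 (-0.35, edgeR adjusted p = 0.0473) fell. Of 6 glycine and threonine enzymes related to Gcat, 0 were called in the first comparison, and in the second the serine hydroxymethyltransferases Shmt2 (0.72, edgeR adjusted p = 0.00217) and Shmt1 (0.41) rose and Amt (-0.43), of the glycine cleavage system, fell. Of 15 nucleolar genes that share the field of Nol12, 0 were called in the first comparison and Rrp12 (0.47), Nop58 (0.29) and Fbl (0.29) rose in the second. Of 8 partners of Pick1 and Ankrd54, the AMPA receptor subunits Gria3 (-1.15, edgeR adjusted p = 0.0244) and Gria2 (-1.87, edgeR adjusted p = 0.0400) fell in the first and 0 were called in the second. Some of these calls were lost in the 12 fits without 1 library: Mical1 and Gria2 in 7 each (edgeR adjusted p up to 0.166 and 0.150), Amt in 5 (0.151), Gria3 (0.107) and Fbl (0.1096) in 4, Shmt1 in 3 (0.0977), and Rab13 (0.0684) and Nop58 (0.0722) in 2. Shmt2 and Rrp12 passed in all 12. Of all 96 genes tested in the 7 lists, 1 rose and 2 fell in Vehicle against Control, beside 3.52% of all genes called. In Knockout against AzadC 7 rose and 4 fell, beside 10.6%. The count of 3 was 1 without control replicate 2 or 3 or vehicle replicate 1 or 3, and the count of 11 was 5 without AzadC replicate 1 or 3 and 4 without knockout replicate 2.

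The genes most like each of the 3 across the 12 libraries, by Pearson's r of log2 CPM among 13095 genes searched, mostly lay on other chromosomes. For Eif3l they were Ssr1 (r = 0.97), a translocon-associated protein, Slc7a11 (0.96), the cystine transporter subunit, and Tuba1c (0.96), an alpha-tubulin. For Micall1 they were Yrdc (0.94), Nefl (0.93), the neurofilament light chain, and Tnfrsf19 (0.93), a receptor of the TNF receptor family. For Polr2f they were Txndc11 (0.96), Serpinh1 (0.95), a collagen chaperone, and Gtpbp1 (0.93). Tuba1c and Gtpbp1 lie on chromosome 15. Gtpbp1, at chr15:79690845-79721479, had log2 differences of -0.12 and 0.14, small beside those of Polr2f. Over the genes named here, differences ran from -2.49 (Slc7a11) to -0.12 in Vehicle against Control. In Knockout against AzadC they ran from 0.14 to 3.18 (Slc7a11). A high r thus went with small and large differences alike. Pairs were ranked, so their r is a description. Between the 3 genes themselves, r was 0.973 for Eif3l with Polr2f and 0.963 for Micall1 with Polr2f. Both values were above the highest r of the search for the genes concerned.

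Markers of other cell types moved with the groups as well, though in other patterns. The 4 bone markers were all lower in Vehicle than in Control, with summed levels of 54.9 to 71.8 and 119 to 185 CPM, but the sum was 50.6 to 67.6 CPM in Knockout and 86.8 to 104 in AzadC. In Knockout against AzadC, summed muscle markers were at 93.3 to 510 and 20.1 to 78.5 CPM, and cartilage markers at 295 to 534 and 962 to 1322 CPM. Endothelial markers, 4 of 5 of them called lower, were at 279.8 to 352 CPM in Knockout and 374 to 444 in AzadC, and 6 of 7 macrophage markers were called higher. Of 8 epithelial markers 2 were lower in Vehicle against Control, where the sums overlapped at 273 to 294 and 183 to 334 CPM. Schwann cell and melanocyte markers, which include genes of the lineage that expresses Sox10, were at 134 to 166 CPM in Knockout and 45.8 to 111 in AzadC, with 89.4 to 127 in Vehicle and 81.9 to 142 in Control. Of 64 markers tested, 3 were higher and 6 lower in Vehicle against Control, and 11 higher and 13 lower in Knockout against AzadC. That is 14.1% and 37.5% of the markers, beside 3.52% and 10.6% of all genes. For none of the 10 lists were all 6 vehicle and AzadC libraries below all 6 untreated ones, as they were for the 3 genes. The part of these cells in the levels of Eif3l, Micall1 and Polr2f was not tested. In bulk tissue, fewer cells of a type and less RNA per cell cannot be told apart.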

How the data were processed

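RNA-seq of 12 libraries (4 groups of 3) was analysed. Per the file headers, each deposited table gives an expected count, TPM, FPKM and a transcript length per gene. The authors made these with Trim Galore, STAR 2.7.0 and RSEM 1.3.1 on mm10, per the submitters' processing notes, which also name FastQC and DESeq2. Expected counts were not normalized by the authors. The deposited TPM values were used for levels between genes. The FPKM values were not used, and the deposited lengths were read as given. RSEM splits reads between overlapping genes by estimation, which bears on the 2 Gcat rows. Expected counts were rounded to whole numbers. Genes passed edgeR's filterByExpr (17335 of 56691), were scaled by TMM and tested by the edgeR 4.0.16 quasi-likelihood test in R 4.3.3. The model held 1 mean per group over all 12 libraries, and p-values were adjusted by Benjamini-Hochberg over all genes at 0.05. Log2 CPM used a pseudocount of 0.5 for correlations. limma 3.58.1 and DESeq2 1.42.0 were alternatives. Scripts were tested on simulated data. The members and gene lists were chosen with earlier results of these data known, so no p-value is given for a member, although one had been planned for Knockout against AzadC. Named genes were all 9 members, and neighbours that overlap or lie between them with a mean above 1 CPM. Also named were the 3 non-member genes most like each of Eif3l, Micall1 and Polr2f. Up to 3 genes per companion list with the smallest adjusted p were named too. Of the 7 companion lists, 1 enters the summed counts only and is not reported here. The limma test on log2(TPM + 1) and the summing of the 2 Gcat rows were chosen after seeing the data.

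Replicates are libraries of pooled embryos, and p-values measure the spread between these libraries only. Each library pools 2 embryos per the labels, while the series text speaks of 3 pooled animals. Same-numbered libraries deviated together in Knockout and Control (correlations 0.27 to 0.57), though no label says that the numbers pair those samples. They did not in Vehicle and Control (-0.05 to 0.17), in Knockout and AzadC (-0.26 to -0.0018) or in AzadC and Vehicle (-0.21 to 0.13). The groups were run without the replicate number as a block, which was tried as an alternative. The strand setting is not given in the sources used here, and 91.9% of gene IDs were found in GENCODE M21.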

Additional observations from a re-analysis of the deposited data

How the results depend on the processing

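The log2 differences in Knockout against AzadC were 1.01 to 1.06 for Eif3l, 0.75 to 0.85 for Micall1 and 1.06 to 1.26 for Polr2f over the alternatives run, given as a description. Called rows of the 10 numbered 3 to 4 in that comparison and in Vehicle against Control, and 0 in AzadC against Vehicle. In Knockout against Control the 1 called row became 0 with only the 2 groups compared and 2 with limma on log2(TPM + 1), and 0 to 1 without 1 library. The further call was Sh3bp1 with limma on log2(TPM + 1) in this comparison and the second Gcat row in the others. Genes called over the whole table in Vehicle against Control, 610 as reported, were 1314 with DESeq2, 1259 with no filter, 221 with limma on log2(TPM + 1) and 136 to 704 without 1 library. Knockout against AzadC gave 915 to 1950 (reported 1841), Knockout against Control 1360 to 2551 (reported 2473) and AzadC against Vehicle 1 to 17 (reported 2) without 1 library. AzadC against Vehicle gave 82 with DESeq2, 119 with no filter and 1 with limma on log2(TPM + 1). Neighbours called in Vehicle against Control, 3 as reported, were 1 within 250 kb, 5 with DESeq2, 5 with a mean above 1 CPM, 1 with only the 2 groups compared, 1 with limma on log2(TPM + 1) and 0 to 5 without 1 library. Between Knockout and AzadC they were 0 within 250 kb, 7 within 1000 kb, 1 with limma on log2(TPM + 1) and 1 to 4 without 1 library. Companion genes called in Vehicle against Control were 6 with DESeq2, 5 with no filter, 1 with limma on log2(TPM + 1) and 1 to 3 without 1 library, and 4 to 12 without 1 library in Knockout against AzadC. The cause of these shifts was not tested. In Knockout against AzadC the sign turned for Triobp (-0.0074) and Pick1 (-0.045) with limma on log2(TPM + 1), and without 1 library values ran from -0.060 to 0.081 for Triobp, -0.010 to 0.13 for Pick1 and -0.22 to 0.077 for Sh3bp1. In Vehicle against Control, values without 1 library ran from -0.61 to 0.039 for Sox10 and from -0.10 to 0.038 for Pdxp.

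With the replicate number as a block, 3 rows were called in Vehicle against Control, 4 in Knockout against AzadC, 0 in AzadC against Vehicle and 1 in Knockout against Control. Over all genes the block gave 498, 1595, 1 and 2244 calls. Rows under 1 CPM, such as the second Gcat row, are limited by depth.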
